A study of Mus musculus with 8 samples.

Results

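The Iroquois homeobox genes Irx1, Irx2, Irx3, Irx4, Irx5 and Irx6 were followed in E11.5 mouse embryos, across 4 tissue origins and in FAK mutants and their controls. All 6 genes were taken by symbol, each with the probe sets annotated to it alone, and each had 1 probe set among the 45101 on the array. They are 6 of the 18193 genes with a probe set of their own. FAK stands for focal adhesion kinase, an enzyme that relays signals from integrins.

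Iroquois proteins are transcription factors of the TALE class of homeodomain proteins, named after a gene complex of the fly. In mammals the genes lie in 2 clusters of 3, Irx1, Irx2 and Irx4 on mouse chromosome 13 and Irx3, Irx5 and Irx6 on chromosome 8. They take part in dividing embryonic fields into territories, among them the neural tube, the heart chambers, the limb and the face.

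The study holds 8 Affymetrix arrays, 1 control and 1 FAK mutant array for each origin. One pair came from cranial neural crest cells sorted for p75, a surface receptor of neural crest cells encoded by Ngfr, and each of these samples pooled 3 embryos taken through dissection of head and thorax. The other 6 arrays came from origins that the labels call LM, OFT and UM without spelling them out. Their descriptions add only control or mutant, and the titles of all 8 arrays begin with head/neck. The embryonic day of these 6 is that of the series title. The FAK allele, any Cre driver, the strain and the number of embryos behind the LM, OFT and UM arrays are not given in the sources used here, and Ptk2, the gene of FAK, was not analysed here, so its transcript gives no check of the genotype labels.

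Markers were used to check the origins. Ngfr had intensities of 1043 and 1422 on the p75 control and mutant arrays and of 47.0 to 149 on the other arrays, and Sox10, a transcription factor of neural crest and glia, had 1512 and 1620 against 25.3 to 57.5. Myl7, the atrial myosin light chain, had 3664 and 4517 on the OFT arrays and 0.8 to 24.8 elsewhere. For Gapdh, 3' signal divided by 5' signal on the control probe sets came to 2.82 and 4.91 on the p75 arrays and 0.700 to 0.986 on the other 6. For beta-actin the ratio was 1.57 and 1.65 on the p75 arrays, within the 1.42 to 1.94 of the other 6. Contrasts that involve p75 are also contrasts with these 2 p75 arrays, and sorting, pooling, RNA quality and origin cannot be told apart for them.

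Of the 6 genes, 4 passed a filter on low values and 2 did not. A gene was tested if at least 2 arrays lay above an intensity of 19.4, the 40th percentile of all values. Irx1, Irx2, Irx3 and Irx5 exceeded it on 8 of 8 arrays. Irx4 and Irx6 exceeded it on 1 array each and were not tested.

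Irx4, known for its part in the heart ventricle, had intensities of 11.3 and 9.80 on the p75 control and mutant arrays, 18.1 and 22.6 in LM, 10.4 and 1.59 in UM, and 8.88 and 12.9 in OFT. Irx6, known from the retina, had 16.1 and 14.6 in p75, 20.5 and 11.4 in LM, 12.9 and 9.29 in UM, and 8.23 and 11.7 in OFT. The LM values of Irx4 were above those of the other origins, whose highest was 12.9, and the Irx6 values of different origins overlapped. As a reference for probe sets with little or no transcript in such tissue, 80 probe sets of olfactory and vomeronasal receptor genes were used. Their 95th percentile was 15.3 to 27.2, depending on the array. The LM mutant value of Irx4 was above 96.2% of these probe sets, its highest standing on any array, and no value of Irx6 was above more than 90% of them. At most 1 array each lifted Irx4 and Irx6 above the filter intensity, and in OFT, where heart muscle genes were bright, both had intensities of at most 12.9.

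**Figure D1:**
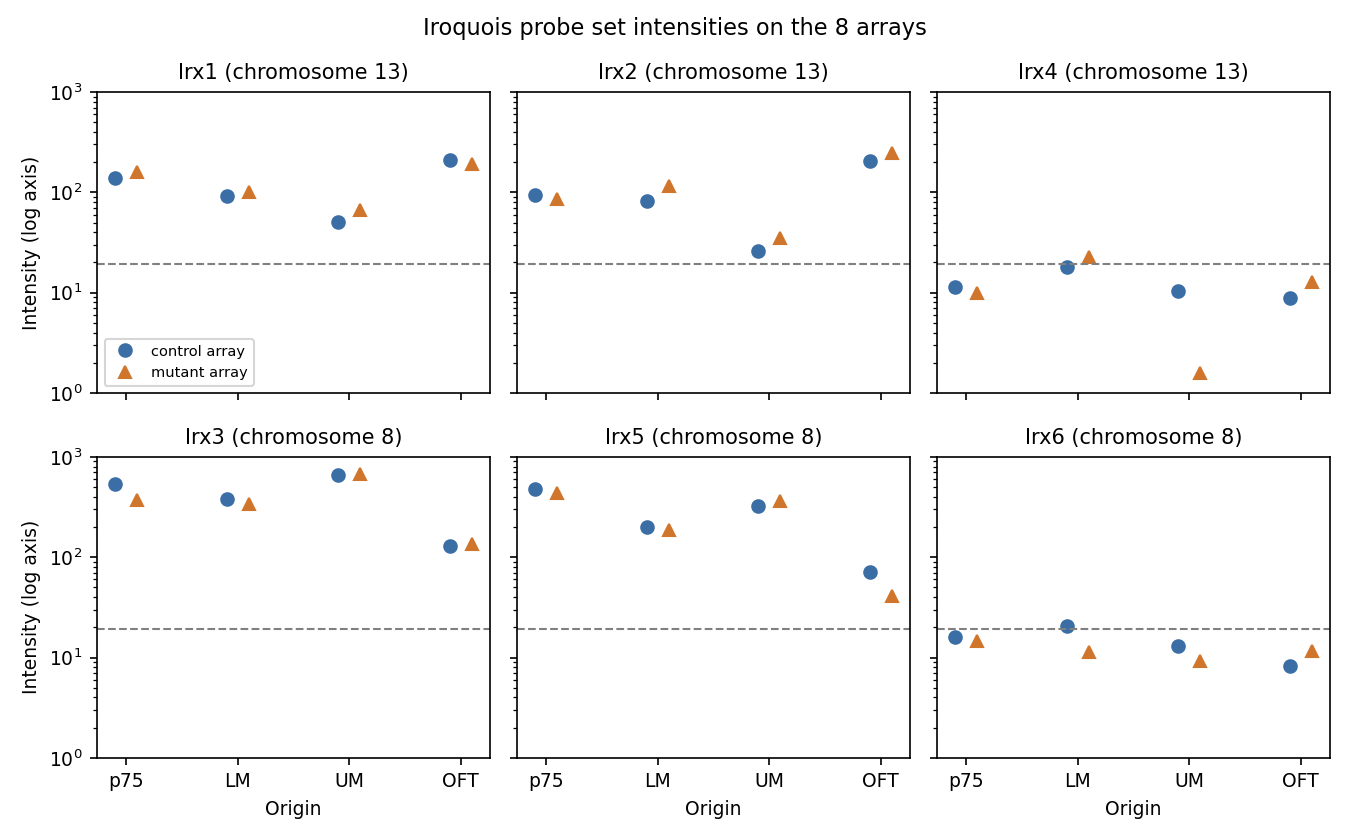
Intensity of each Iroquois probe set (log axis) on the control (circles) and mutant (triangles) array of each origin, with the filter intensity of 19.4 as a dashed line. Irx1 and Irx2 were highest in OFT and lowest in UM, Irx3 and Irx5 were lowest in OFT, and Irx4 and Irx6 lay near or below the line.

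Irx1 and Irx2, the chromosome 13 genes with signal, were highest in OFT and lowest in UM. Irx1, known from lung and digit development, had intensities of 208 and 193 on the OFT control and mutant arrays, 139 and 160 in p75, 91.4 and 100.2 in LM, and 50.5 and 67.1 in UM. The ranges of the 4 origins did not overlap. Irx2, often expressed in the same places as Irx1, had intensities of 206 and 245 in OFT, 82.6 and 114 in LM, 93.3 and 86.4 in p75, and 26.0 and 35.1 in UM. The OFT values were above and the UM values below all others, while the LM and p75 values overlapped. The UM control value of Irx2 was above 95% of the olfactory and vomeronasal probe sets, a lower standing than that of Irx4 on the LM mutant array. The UM mutant value was above 98.75% of them, a higher standing. Irx2 in UM thus lay near background, on the control array as close to it as Irx4 at its highest.

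Irx3 and Irx5, the chromosome 8 genes with signal, were lowest in OFT. Irx3 was highest in UM and Irx5 in p75. Irx3, a factor of neural tube patterning and, with Irx5, of the heart and limb, had intensities of 663 and 681 on the UM control and mutant arrays, 540 and 371 in p75, 380 and 342 in LM, and 129 and 136 in OFT. The UM values were the highest and the OFT values the lowest, and the p75 mutant value fell within the LM range. Irx5, whose human counterpart is mutated in a syndrome with craniofacial features, had 481 and 435 in p75, 323 and 362 in UM, 199 and 185 in LM, and 70.8 and 41.5 in OFT. The ranges of the 4 origins did not overlap for Irx5. In these bulk samples fewer cells that express a gene and less RNA per cell cannot be told apart.

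The question put to these values was whether a gene's level differs between origins by more than its spread between the arrays of an origin. Levels were compared as log2(intensity + 32) with limma, genotype being a term, so the control and mutant array of an origin served as its replicates. A limma F-test over the 4 origins called all 4 tested genes, with adjusted p = 0.00033 for Irx1, 3.1e-05 for Irx2, 3.1e-05 for Irx3 and 6.6e-06 for Irx5. Of all 13545 genes tested, 46.4% were called, so that a call by itself was common among all genes. A fit on all 25642 probe sets that passed the filter used the same values for these genes, as each had 1 probe set. It also called the 4 probe sets, where 45.2% of probe sets were called, and is no separate check.

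The 6 pairs of origins gave 17 calls among the 24 tests of these 4 genes. The contrast of OFT with UM held the clearest pattern. Irx1 was higher in OFT than in UM by 1.36 ± 0.18 on the log2(intensity + 32) scale (moderated SE, 2 arrays in each origin), and limma gave adjusted p = 0.00025. Irx2 was higher by 2.04 ± 0.18, with adjusted p = 1.1e-05 by limma. With a pseudocount of 1 in place of 32 the difference of Irx2 was 2.85, and no fold is given because its UM level lay near background. Irx3 and Irx5 were lower in OFT, with log2 differences of -2.10 ± 0.19 and -2.10 ± 0.19 and adjusted p = 1.5e-05 and 1.4e-05 by limma. Of all genes 12.1% were called in this contrast, 9.01% higher and 3.09% lower. These 4 calls held without the p75 pair, with adjusted p of 7.2e-05 to 0.0012 by limma.

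**Figure D2:**
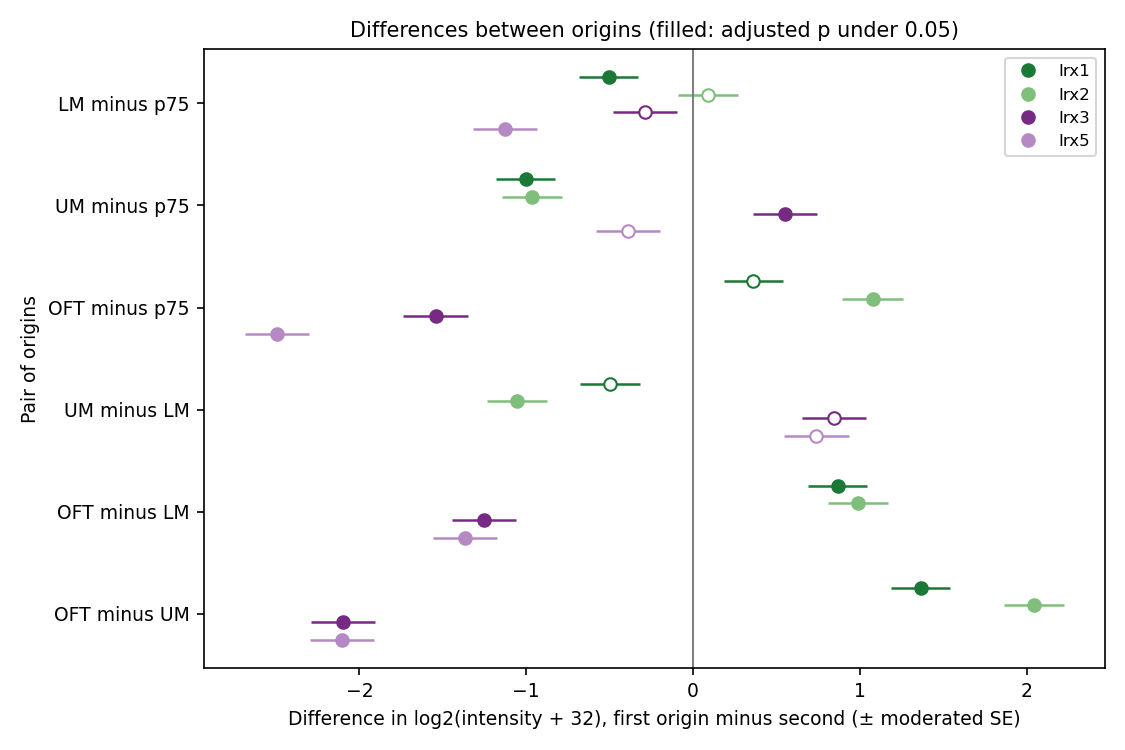
Difference in log2(intensity + 32) between each pair of origins for the 4 tested Iroquois genes, with limma's moderated SE as bars; filled points had an adjusted p under 0.05. In OFT minus UM, Irx1 and Irx2 lie to the right of 0 (1.36 and 2.04) and Irx3 and Irx5 to the left (both -2.10).

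OFT also differed from LM in all 4 genes. Irx1 and Irx2 were higher in OFT by 0.87 ± 0.18 and 0.99 ± 0.18, with adjusted p = 0.0071 and 0.0036 by limma. Irx3 and Irx5 were lower, at -1.25 ± 0.19 and -1.37 ± 0.19, with adjusted p = 0.0011 and 0.00053 by limma. The contrast called 10.9% of all genes, 8.77% higher and 2.18% lower. The call of Irx1 was lost without the OFT control array, at adjusted p = 0.16, and that of Irx2 without the OFT control or the OFT mutant array, at 0.054 and 0.052.

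Against p75-sorted cells, OFT was higher in Irx2, by 1.07 ± 0.18 with adjusted p = 0.00088 by limma, and lower in Irx3 and Irx5, at -1.54 ± 0.19 and -2.49 ± 0.19, with adjusted p = 0.00011 and 3.2e-06. The difference of Irx5 was 5.63-fold on this scale. Irx1 differed by 0.36 ± 0.18 and did not pass, with adjusted p = 0.13 by limma and a 95% interval of -0.02 to 0.75. The contrast called 34.6% of all genes, 15.4% higher and 19.2% lower.

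LM and UM differed in fewer genes. Irx2 was lower in UM, at -1.05 ± 0.18 with adjusted p = 0.0093 by limma, where 1.56% of all genes were called, 0.738% lower and 0.819% higher. This call was lost without the LM mutant, the UM control or the UM mutant array, at adjusted p of 0.069 to 0.083. Irx1 differed by -0.50 ± 0.18 with adjusted p = 0.33 by limma. Irx3 and Irx5 had UM minus LM differences of 0.84 ± 0.19 and 0.74 ± 0.19, with adjusted p = 0.056 and 0.10 by limma, and did not pass. Their 95% intervals, 0.42 to 1.26 and 0.32 to 1.16, are not adjusted for the number of genes.

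Against p75, UM was lower in Irx1 and Irx2, at -1.003 ± 0.18 and -0.97 ± 0.18, with adjusted p = 0.00087 and 0.0013 by limma. Irx3 was higher in UM by 0.55 ± 0.19, with adjusted p = 0.036 by limma. That call was lost without the p75 mutant array, at adjusted p = 0.36 and a difference of 0.31, and without either UM or either OFT array, at 0.052 to 0.20. Irx5 differed by -0.39 ± 0.19 and did not pass, with adjusted p = 0.13. This contrast called 42% of all genes, 16% higher and 26% lower.

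LM was lower than p75 in Irx5, at -1.13 ± 0.19 with adjusted p = 0.00069 by limma, and in Irx1, at -0.50 ± 0.18 with adjusted p = 0.037. The call of Irx1 was lost without either p75, either LM or either OFT array, at adjusted p of 0.054 to 0.17. Irx2 and Irx3 differed by 0.09 ± 0.18 and -0.29 ± 0.19, with adjusted p = 0.73 and 0.25 by limma, and did not pass. The contrast called 42% of all genes, 15.9% higher and 26.1% lower.

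Read as an order of levels, Irx1 went from OFT to p75 to LM to UM, and among the neighbours only p75 and LM passed the threshold adjusted over all genes. LM minus UM was close in size to p75 minus LM and had an unadjusted 95% interval, as UM minus LM, of -0.88 to -0.11. Irx2 went from OFT to LM to p75 to UM, and LM and p75, whose values overlapped, did not pass. Irx3 went from UM to p75 to LM to OFT, and p75 and LM, whose values overlapped, did not pass. Irx5 went from p75 to UM to LM to OFT, and among the neighbours only LM and OFT passed the adjusted threshold, although the ranges of all 4 origins lay apart.

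The 2 tested genes of each cluster followed each other over the 8 arrays. Pearson's r was 0.904 between Irx1 and Irx2 and 0.899 between Irx3 and Irx5. Irx4 had an r of 0.102 and 0.351 with Irx1 and Irx2, and Irx6 of 0.310 and 0.370 with Irx3 and Irx5. Between the tested genes of different clusters it was negative, from -0.943 for Irx2 with Irx3 to -0.537 for Irx1 with Irx5. The 8 points are 4 origins with 2 arrays each, and all genes share these arrays.

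The sequence before the start of a gene is shown for 1 gene of each cluster, Irx2 and Irx3, which differed in opposite directions between OFT and UM. They were the tested members with a sequence in the source used here, which held none for Irx1, Irx5 and Irx6. The sequences are RefSeq's, of build GRCm38.p6, and those of Irx2, Irx3 and Irx4 were searched. The 250 bases before the start lie at chr13:72628570-72628819 on the plus strand for Irx2 and at chr8:91801655-91801904 on the minus strand for Irx3, each read 5′ to 3′ toward the gene. Capitals mark matches to the E-box CANNTG.
Irx2: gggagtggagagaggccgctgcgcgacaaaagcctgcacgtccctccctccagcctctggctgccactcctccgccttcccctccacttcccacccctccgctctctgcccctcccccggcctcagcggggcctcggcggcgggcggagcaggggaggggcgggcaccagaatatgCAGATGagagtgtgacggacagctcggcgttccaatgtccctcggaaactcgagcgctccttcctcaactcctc
Irx3: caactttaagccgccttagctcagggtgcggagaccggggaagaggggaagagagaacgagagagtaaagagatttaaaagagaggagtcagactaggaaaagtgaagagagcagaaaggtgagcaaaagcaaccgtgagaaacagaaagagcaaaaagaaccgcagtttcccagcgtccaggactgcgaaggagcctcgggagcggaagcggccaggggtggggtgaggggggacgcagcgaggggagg
The Irx2 stretch held 1 E-box letter match, CAGATG, whose first base lies 74 bases before the start, and the Irx3 and Irx4 stretches held 0. Among 32817 stretches of the same length before RefSeq gene starts, 66.2% held at least 1 such match. The letters ACANNTGT, a site bound by the fly Iroquois protein Mirror that contains an E-box, were not found in the stretches of Irx2, Irx3 or Irx4, and 6.32% of all stretches held them. Both motifs read the same on either strand. The share of G and C was 68.4% for Irx2, 68.8% for Irx4 and 56% for Irx3, where the median over all stretches was 52.4%.

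The genes that lie beside the members did not all share their pattern. Crnde, a long noncoding RNA gene that is the neighbour of Irx5 in RefSeq's gene order, had intensities of 102 and 128 on the UM control and mutant arrays, 99.3 and 64.9 in LM, 49.7 and 71.1 in p75, and 23.1 and 11.4 in OFT. Like Irx3 and Irx5 it was lower in OFT than in UM, at -1.58 with adjusted p = 0.00043 by limma, its OFT mutant value being below the olfactory 95th percentile of 16.7. It differed from Irx5 in its order, being brighter in UM than in p75 by 0.67 with adjusted p = 0.027. Fto, the neighbour of Irx3 on the other side, had 364 to 441 on all arrays and adjusted p = 0.91 across origins by limma, and Aktip had adjusted p = 0.35.

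Mmp2, a matrix metalloproteinase gene beyond Irx6, was highest in p75, with 2514 and 3231, and its OFT values of 1040 and 753 were above those of LM and UM, which were 380 to 516. On chromosome 13, Mrpl36 and Lpcat1, beyond Irx4, had adjusted p = 0.0036 and 0.00029 across origins by limma. Neither differed between OFT and UM past the threshold, with adjusted p = 0.36 and 0.12. Ice1 and Adamts16, on the far side of Irx1, had adjusted p = 0.14 and 0.17 across origins. Of a list of 10 genes near the clusters 8 were tested, and 6 were called across origins, against 46.4% of all genes. Between OFT and UM 1 of the 8, Mmp2, was called higher and 2, Crnde and Nkd2, lower, against 9.01% and 3.09% of all genes, and the median difference of the 8 was -0.07.

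**Figure D3:**
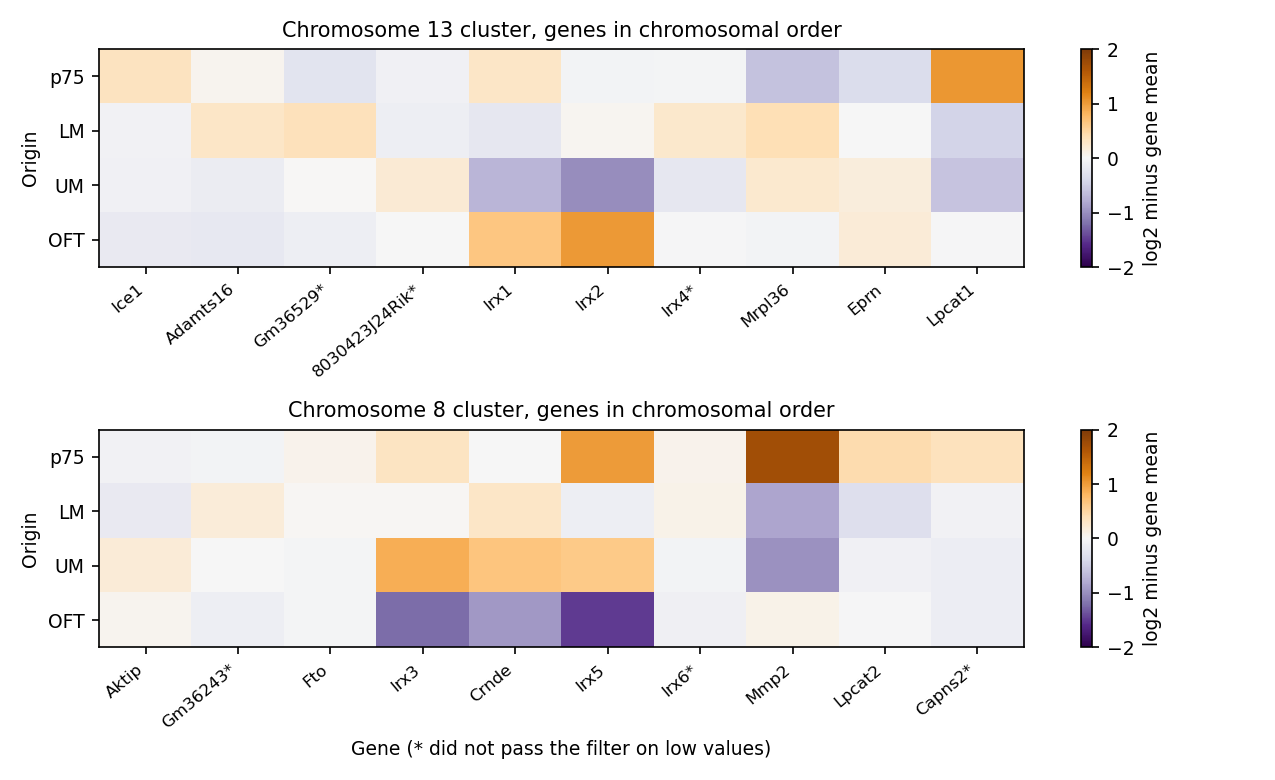
Mean log2(intensity + 32) of each origin minus the gene's mean over the 4 origins (colour), for genes with a probe set in and around each cluster, in chromosomal order; an asterisk marks genes that did not pass the filter. Irx1 and Irx2 are high in OFT and low in UM, Irx3, Crnde and Irx5 are low in OFT, and Fto shows little difference between origins.

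Other TALE homeobox genes were examined because Meis and Pbx proteins are common cofactors of homeodomain factors. Of the 11 genes tested, 10 were called across origins, where 46.4% of all genes were. Between OFT and UM 4 were called higher and 2 lower, where 9.01% and 3.09% of all genes were. Meis1 and Meis2 were higher in OFT by 1.67 and 1.07, with adjusted p = 0.00013 and 0.0022 by limma, and Pbx3 and Pknox1 by 0.78 and 0.76. Mkx, a factor of tendon cells, was lower by 1.09 and Tgif1, a repressor, by 0.68, with adjusted p = 0.0017 and 0.037 by limma. The median difference between OFT and UM over the 11 genes was 0.21, and that over all genes 0.01.

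A list of heart genes that act with Iroquois factors or respond to them was followed as well. Of 15 genes 12 were tested and 9 were called across origins, against 46.4% of all genes. Between OFT and UM 7 were called higher, against 9.01% of all genes. Among them were the myosin genes Myh7, with intensities of 3424 and 3051 in OFT, and Myh6, with 1055 and 1199. The T-box gene Tbx20 had 1023 and 1586 in OFT, and Gata4, a zinc finger factor, 127 and 106. In UM these 4 genes had 3.56 to 15.0, below the 95th percentile of the olfactory and vomeronasal probe sets there (19.1 and 25.4), so no fold is given. The 1 gene called lower was Gja1, the connexin 43 gene, known as a repressed target of Irx3 in the heart, at -0.81 with adjusted p = 0.012 by limma. The potassium channel gene Kcnd2, a target of Irx5 in the heart, did not pass, at 0.30 with adjusted p = 0.35. The median OFT minus UM difference of the 12 genes was 1.24, a value that rests in part on such dim genes, and that of all genes 0.01.

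Of 7 genes that act with Iroquois factors in the face or pattern tissues in which they act, 5 were called across origins, against 46.4% of all genes, and between OFT and UM 2 were called higher and 2 lower, against 9.01% and 3.09%. Shh, the hedgehog ligand, was higher in OFT than in UM by 2.24 with adjusted p = 1.2e-05 by limma, and Cxcl12, a chemokine gene, by 1.31. Trps1, a zinc finger repressor, was lower in OFT by 0.64. Fgf8, a growth factor gene, was called lower in OFT, with intensities of 27.4 and 40.5 in UM and of 0.470 and 0.725, at background, in OFT. Gata3, a partner of Irx5, was higher in UM than in LM by 0.92 with adjusted p = 0.024 by limma, and Shh was lower in UM at -0.99. The median OFT minus UM difference of the 7 genes was 0.39.

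Summed markers of several cell types also differed between OFT and UM, and single members did not all follow their sum. The summed intensity of 8 heart muscle genes was 19947 and 22899 on the OFT control and mutant arrays and 77.3 and 124 in UM. The 8 facial mesenchyme genes with a probe set, of 9 listed, summed to 5312 and 4508 in OFT and 10596 and 11182 in UM. Of these 8, 5 were called lower in OFT and 0 higher, and Pdgfra had 2473 and 2393 in OFT and 2088 and 1827 in UM. The 8 epithelium genes summed to 1916 and 1890 in OFT and 2315 and 2789 in UM. Here 4 were called lower in OFT and 0 higher, and Krt8 had 236 and 232 in OFT and 199 and 228 in UM. Of all genes 9.01% were called higher and 3.09% lower. The 8 neural tube progenitor genes summed to 406 and 443 in OFT and 948 and 868 in UM. Sox2 alone had 319 and 384 in OFT and 788 and 691 in UM, and Sox1 lay below the filter intensity on every array. Of the 7 tested, 1 was called higher in OFT and 3 lower, against 9.01% and 3.09% of all genes. The 8 neuron genes summed to 5055 and 3322 in OFT and 1865 and 1045 in UM, and 4 were called higher in OFT and 0 lower. Tubb3 had 228 and 117 in OFT and 201 and 152 in UM, and Elavl3 had 45.5 and 31.1 in OFT and 118 and 54.1 in UM. The 8 endothelial genes summed to 2064 and 1765 in OFT and 966 and 1025 in UM. The 8 skeletal muscle genes summed to 825 and 1124 in OFT and 276 and 354 in UM, with Myf6 below the filter intensity on every array. Of the 7 tested skeletal muscle genes, 6 were called higher in OFT and 1 lower. Acta1 alone had 411 and 598 in OFT, and Pax7 had 29.0 and 27.5 in OFT and 208 and 248 in UM. In p75-sorted cells 7 neural crest and glia genes summed to 6029 and 7221, against 1132 to 2326 elsewhere. Against p75, 6 of the 7 were called lower in OFT and 1 higher, where 19.2% and 15.4% of all genes were. In UM 5 were called lower and 1 higher, where 26% and 16% of all genes were. Ets1 had 1380 and 1393 in OFT and 804 and 893 in p75, and Tfap2b had 792 and 613 in UM and 359 and 222 in p75. Between UM and LM, 5 of 7 tested skeletal muscle genes and 3 of 8 heart muscle genes were called lower in UM, where 0.738% of all genes were. Called higher were 1 skeletal muscle gene, 3 of 8 epithelium, 3 of 7 neural tube progenitor and 3 of 8 neuron genes, where 0.819% of all genes were. Facial mesenchyme genes had 2 called higher and 1 lower, neural crest and glia genes 2 higher, and endothelial genes 2 lower. Skeletal muscle genes summed to 576 and 845 in LM and heart muscle genes to 679 and 1029. Actc1 alone had 552 and 875 of the latter, and Myl7 had 0.797 and 2.20 in LM. Of the 8 heart muscle genes, 3 exceeded the filter intensity on both LM arrays. The part of these cell types in the Iroquois differences was not tested.

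The genes whose values over the 8 arrays were most like those of a member were taken from those with a log2 range of at least 1, which were 5401 genes. For Irx1 they were Ccn4, Parm1, Chrdl1, Actc1 and Pag1, with Pearson's r of 0.982 to 0.992. Chrdl1 encodes a BMP antagonist and Actc1 the cardiac alpha actin. For Irx2 they were Hoxb2, Car3, Meox1, Synpo2 and Ptch1, with r of 0.968 to 0.994. Hoxb2, a homeobox gene of hindbrain and arch position, had intensities of 264 and 311 in OFT and 3.52 and 2.92 in UM, and Ptch1 encodes the hedgehog receptor.

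For Irx3 they were Mylip, Pax3, Pantr1, Pou3f3 and Mkx, with r of 0.975 to 0.991. Pax3, a paired-box factor of neural crest, had intensities of 646 and 568 in UM and 3.65 and 11.9 in OFT, and Pou3f3 encodes a POU factor of the upper jaw. For Irx5 they were Emilin2, Tril, Igfbp2, Nbl1 and Nkd1, with r of 0.957 to 0.972. Nbl1 encodes a secreted BMP antagonist and Nkd1 an inhibitor of Wnt signalling. All these genes share the same 8 arrays, 2 for each origin.

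Mutant against control asks whether the samples labelled as FAK mutants differ in Iroquois transcript levels across the origins. No tested member passed the threshold. The mutant minus control difference over the 4 pairs was 0.11 ± 0.13 for Irx1, 0.18 ± 0.13 for Irx2, -0.14 ± 0.14 for Irx3 and -0.14 ± 0.14 for Irx5 (moderated SE, n = 4 pairs). Limma gave an adjusted p of 0.9997 for each of the 4 genes, and their unadjusted p ranged from 0.19 to 0.40. Over all 13545 genes limma called 0, or 0%, with 410 genes at an unadjusted p under 0.05, so none of the other TALE, heart, facial or neighbouring genes was called either. The 95% intervals were -0.16 to 0.38 for Irx1, -0.10 to 0.45 for Irx2, -0.43 to 0.16 for Irx3 and -0.44 to 0.16 for Irx5. Differences of 1 log2 unit between genotypes, shared by the origins, thus lay outside the interval of every tested member.

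**Figure D4:**
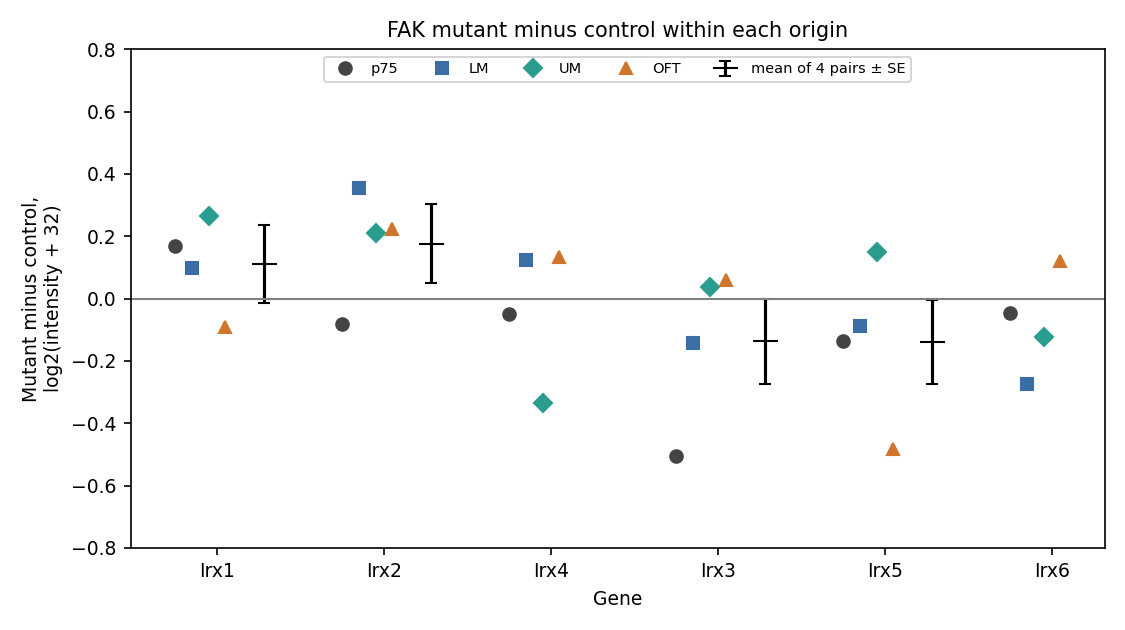
Mutant minus control difference in log2(intensity + 32) within each origin (coloured symbols, 1 pair of arrays each) and the fitted mean over 4 pairs with its moderated SE (black), which is drawn for the 4 tested genes. The means lie between -0.14 and 0.18, and each gene has pairs on both sides of 0.

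Within single origins each difference rests on 1 array per genotype and has no replicate check. Irx3 was lower in the p75 mutant than in its control, with intensities of 371 and 540 and a log2 difference of -0.51, and differed by -0.14 in LM, 0.04 in UM and 0.06 in OFT. Irx5 differed by -0.48 in OFT, with intensities of 41.5 in the mutant and 70.8 in the control, and by -0.14 in p75, -0.09 in LM and 0.15 in UM. Irx2 differed by 0.35 in LM, 0.21 in UM, 0.22 in OFT and -0.08 in p75. Irx1 differed by 0.27 in UM, 0.17 in p75, 0.10 in LM and -0.09 in OFT. No member had the same sign in all 4 pairs, Irx4 and Irx6 included.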

How the data were processed

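RNA was measured on 8 Affymetrix arrays, 1 per origin and genotype. Each probe set has 1 deposited value, a linear intensity. The software and scaling of the authors are not given in the sources used here; the trimmed mean intensity (2nd to 98th percentile) was 150.0 on every array, and no further scaling was applied. The small number of arrays limits precision.

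Gene names came from GEO's platform annotation: 34945 had exactly 1 gene, 932 several and were left out, and 9160 were unlisted. Each gene was represented by its brightest probe set. Values were turned into log2(intensity + 32), a scale that understates the fold changes of dim genes. The filter kept 13545 genes. limma 3.58.1 in R 4.3.3 (lmFit, eBayes) was fitted with origin and genotype as terms, with 3 residual and 9.06 prior degrees of freedom. Contrasts were the F-test over origins, 6 pairs of origins and mutant minus control, each adjusted by Benjamini-Hochberg over all genes, with a threshold of 0.05. Control and mutant were paired by the origin label, and p-values across origins measure only the spread between these arrays. The fit was also run on simulated data with a 2-fold change in 200 of 13545 genes, and no result here rests on that run.

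The text names all 6 members, up to 4 called genes per list and contrast by size of difference, and the 5 genes most correlated with each tested member. Gja1, Kcnd2, Hoxb2 and Pax3 values were singled out after they were seen. The genes around each cluster, from the third protein-coding gene before to the third after it, and the neighbours named among them were chosen after the files were seen. The members and lists were chosen with earlier results of these data known. Array values carry no genome build, and gene order comes from RefSeq's GRCm38.p6 table.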

Additional observations from a re-analysis of the deposited data

Results flagged for a closer look

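The mutant minus control difference had opposite signs in different origins for all 4 tested members. The gap between the origins with the highest and the lowest difference, in log2(intensity + 32), was 0.63 for Irx5 (UM above OFT), 0.56 for Irx3 (OFT above p75), 0.44 for Irx2 (LM above p75) and 0.36 for Irx1 (UM above OFT). With 1 array per genotype and origin these gaps were not tested.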

How the results depend on the processing

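The F-test across origins called 4 of the tested members in all 18 alternatives: pseudocounts of 1, 16 and 64, no filter or one at the 60th percentile, probe sets averaged per gene, quantile normalization, an intensity trend, genotype left out, each array left out, and no p75 pair. The count of calls between pairs of origins, 17, was 13 to 16 without single arrays, where a lone array is assumed to vary like the others, and 13 at a pseudocount of 1; without the p75 pair it was 9, and 9 of the 17 calls were between LM, UM and OFT. The OFT against UM calls of the 4 genes held in all 18 alternatives, with adjusted p up to 0.013 by limma. Mutant against control gave 0 calls among the members in all 21 alternatives, including 0 with no replicate block, that is, without pairing by origin. For this contrast, leaving out either array of an origin gave the same estimates as leaving out both, so the 21 are not all separate fits. Each member has 1 probe set, so averaging probe sets per gene left the members' own values unchanged.

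The LM minus p75 difference of Irx2 changed sign in 2 alternatives and ranged from -0.083 (without the p75 mutant array; -0.030 without the LM mutant array) to 0.26 (without the p75 control array). At a pseudocount of 1 limma's adjusted p rose to 0.060 for Irx1 in LM against p75, 0.050 for Irx1 in OFT against LM, 0.065 for Irx2 in UM against LM and 0.097 for Irx3 in UM against p75, the last also missing at a pseudocount of 16 (0.060). Irx3 in UM against LM passed in 5 alternatives, with adjusted p of 0.033 to 0.047: a pseudocount of 64, the stricter filter, the mean of probe sets, the intensity trend and genotype left out. The cause of these shifts was not tested. Over all genes, 3816 were called across origins at a pseudocount of 1, 3428 without the p75 mutant array and 1438 without the p75 pair, against 6290; between genotypes 1 gene was called without either LM array or both, at adjusted p = 0.036 by limma. Without a filter Irx4 and Irx6 entered the fit, with adjusted p = 0.23 and 0.70 across origins by limma. Signal near background limits what can be said of Irx4, Irx6 and Irx2 in UM.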
